A study of Homo sapiens with 15 samples.

Results

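The keratin gene clusters were examined as those ChIP-seq peaks whose centre lay between 52.56 and 53.35 Mb of chromosome 12 in hg19, where the type II keratins lie with KRT8 and KRT18 at the distal end, or between 38.8 and 39.8 Mb of chromosome 17, the type I keratins. This choice used position only. It gave 361 peaks of 647617 in all (0.0557%), of which 158 and 144 came from the libraries of H3K4ox replicates 1 and 2, 12 from that of H2A.Z and 47 from that of RUVBL2. The cells were MDA-MB-231, a triple-negative breast cancer cell line with mesenchymal features, and no treatment or knockdown is given for these libraries. H3K4ox is histone H3 oxidised at lysine 4, the modification left by the lysyl oxidase LOXL2, H2A.Z is a histone variant and RUVBL2 is an ATPase of the complexes that exchange it. The H3K4ox antibody was handmade, and those to H2A.Z and RUVBL2 were commercial (abcam). Peak lists were at hand for 4 of 15 samples, and the other 11 (1 input, 8 RNA-seq and 2 ATAC-seq) were not analysed here, so neither the silence of the cluster interiors nor the identity of the line was checked against expression.

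Keratins are the intermediate filament proteins of epithelia, and each filament pairs a type I with a type II chain. Most are restricted to 1 kind of epithelium or to hair, and their genes stand in 2 dense clusters that are switched on gene by gene during differentiation. KRT8 and KRT18, the pair of simple epithelia, lie side by side at the edge of the type II cluster, although KRT18 is a type I keratin. In the RefSeq gene order of GRCh38.p14, used for names and order only, the type II cluster runs from KRT80 to KRT18 with 27 coding keratin genes and no other coding gene between them. KRT80 and KRT7 come first, then hair keratins such as KRT81 and KRT86, the stratified epithelial keratins KRT6A and KRT5, the epidermal KRT2 and KRT1, the mucosal KRT4, and KRT8 and KRT18. The type I cluster runs from KRT24 to KRT17 with 27 keratin genes and 34 genes of keratin-associated proteins, the matrix proteins of hair. Its order begins with KRT24, passes the epidermal KRT10, the keratin-associated block and the hair keratins, and ends with KRT19, KRT9, KRT14, KRT16 and KRT17.

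No hg19 genome was used here, so peak sequences are not shown and peaks could not be placed on exons or promoters. As examples of sequence ahead of gene starts in these clusters, the 250 bases before 1 annotated start of each of 3 genes are given from RefSeq. All are on the minus strand of GRCh38.p14, a different build from that of the peaks. They are KRT8 of the KRT8-KRT18 end (chr12:52926470-52926719) and the basal keratin KRT5 of the type II cluster (chr12:52520395-52520644). The last is KRTAP1-1, a hair matrix gene of the type I cluster (chr17:41041451-41041700). Capitals mark CG and the motif TATAAA, searched on both strands.
KRT8: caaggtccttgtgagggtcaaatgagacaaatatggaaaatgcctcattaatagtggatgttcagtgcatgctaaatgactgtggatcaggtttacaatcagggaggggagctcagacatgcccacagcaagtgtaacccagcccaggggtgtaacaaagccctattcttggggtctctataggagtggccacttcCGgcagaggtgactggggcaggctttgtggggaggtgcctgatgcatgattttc
KRT5: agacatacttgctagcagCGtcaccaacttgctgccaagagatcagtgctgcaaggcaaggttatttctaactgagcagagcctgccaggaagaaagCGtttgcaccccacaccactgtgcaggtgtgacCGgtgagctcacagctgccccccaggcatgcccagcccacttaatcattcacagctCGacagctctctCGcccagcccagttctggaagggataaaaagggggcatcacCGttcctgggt
KRTAP1-1: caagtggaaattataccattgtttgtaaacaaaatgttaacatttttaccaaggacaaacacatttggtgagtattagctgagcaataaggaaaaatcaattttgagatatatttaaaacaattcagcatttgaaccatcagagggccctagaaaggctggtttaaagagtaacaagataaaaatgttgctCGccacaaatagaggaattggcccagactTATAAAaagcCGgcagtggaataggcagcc
These windows held 1, 6 and 2 CG, and TATAAA occurred in that of KRTAP1-1. Other starts of these genes were not examined, so a window need not be the main promoter of its gene, and this holds for KRT8. Over the 33 of 34 keratin-associated protein genes with an entry, the median was 1 CG (range 0 to 5) and 29 windows (87.9%) held TATAAA or its reverse complement, against a median of 11 CG and 10.7% over 35116 promoters of the table. Entries were present for 14 of 27 keratin genes of the type II cluster and 20 of 27 of the type I cluster, too few for a summary, which is therefore void. None of this was tied to a peak.

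The first comparison set the type II interior, the 730 kb before the KRT8-KRT18 end (52.56 to 53.29 Mb of chromosome 12), against the 1 Mb flanks on either side of the cluster. The interior was poor in peaks of the 3 antibodies. The lists of H3K4ox replicates 1 and 2 held 27 and 23 peaks in the interior, against 240 and 252 in the flanks. This is 34.2 ± 3.9 peaks per Mb in the interior and 123.0 ± 4.2 per Mb in the flanks (SD, n = 2), and the interior was below the flanks in both libraries. The log2 ratio of interior to flanks was -1.85 ± 0.21 (SD, n = 2), and its 95% exact binomial intervals were -2.33 to -1.12 in replicate 1 and -2.68 to -1.38 in replicate 2. H2A.Z had 1 peak in the interior and 36 in the flanks (log2 ratio -3.72, interval -9.06 to -1.15). RUVBL2 had 6 and 65 (log2 ratio -1.98, interval -3.48 to -0.78). The intervals reflect the number of peaks alone, as if each peak were independent of its neighbours. No test across samples was made, since 2 H3K4ox libraries allow an exact paired permutation p no lower than 0.5 and H2A.Z and RUVBL2 had 1 library each.

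The flanks differed from each other, and H3K4ox and H2A.Z were sparser in the interior than on either side by more than counting error. H3K4ox had 93.0 peaks per Mb in the proximal flank of both libraries and 153.0 ± 8.5 per Mb (SD, n = 2) in the distal flank. H2A.Z had 15 and 21 peaks there. RUVBL2 had 20 peaks in the proximal and 45 in the distal flank, and against the proximal flank alone its interval reached past 0 (log2 ratio -1.28, interval -2.89 to 0.09). Peaks covered 2.99% ± 0.37 of the interior and 11.5% ± 0.05 of the flanks for H3K4ox (SD, n = 2), 0.0704% and 1.45% for H2A.Z, and 0.600% and 2.65% for RUVBL2.

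**Figure D1:**
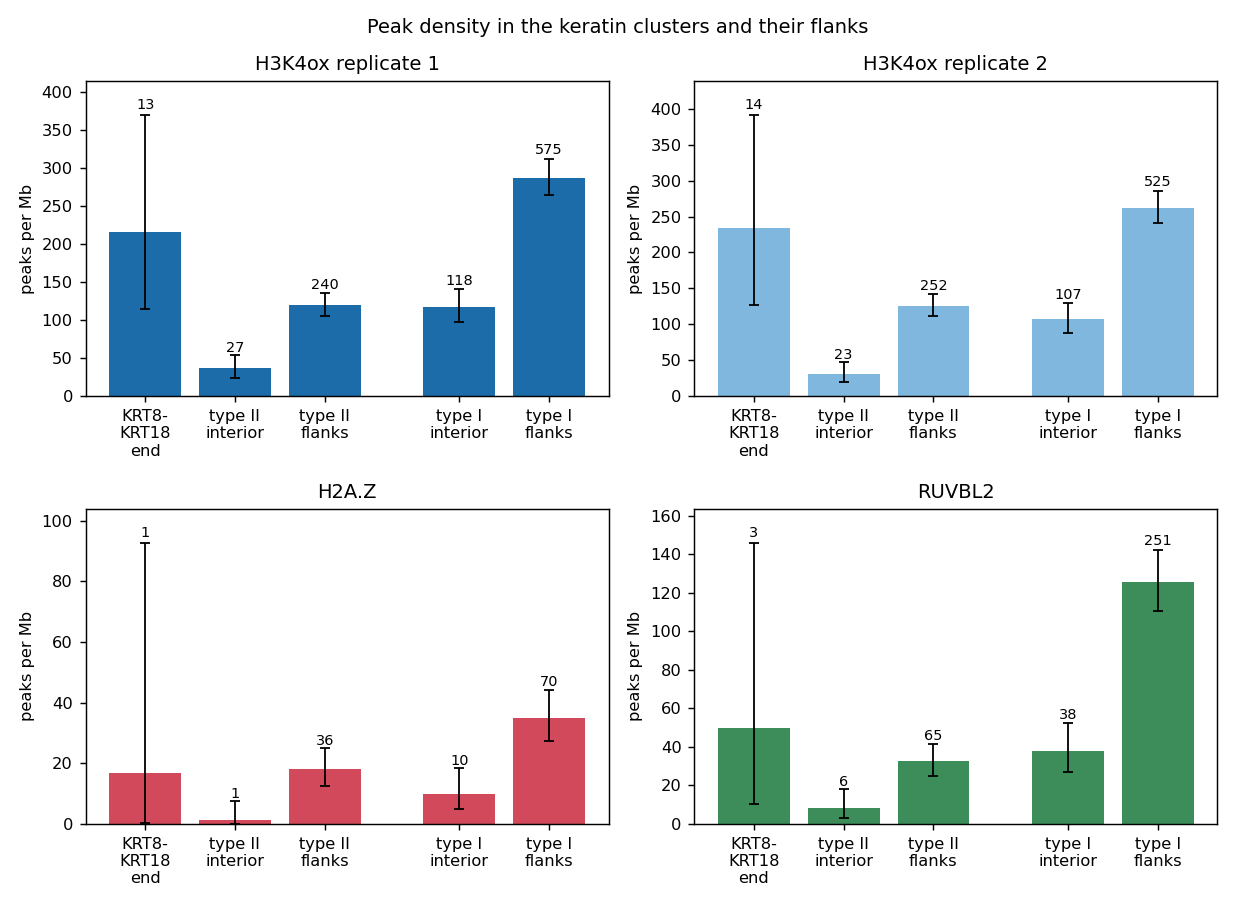
Peaks per Mb (y axis) in the KRT8-KRT18 end, the 2 cluster interiors and their 1 Mb flanks, 1 panel per peak list. Bars are densities, error bars exact 95% Poisson intervals for counting error and numbers above them the peaks counted; each interior is below its flanks in the 4 lists, as with 27 against 240 peaks for type II and 118 against 575 for type I in H3K4ox replicate 1.

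Set against the genome divided into regular windows of 730 kb, the type II interior was low for RUVBL2 and H2A.Z and less so for H3K4ox. Of the 3976 windows that held any peak, 20.3% had 27 H3K4ox peaks of replicate 1 or fewer and 15.2% had 23 of replicate 2 or fewer, with medians of 47 and 46. For H2A.Z, 9.56% of windows held 1 peak or none, with a median of 7. For RUVBL2, 5.03% held 6 or fewer, with a median of 22. Within chromosome 12 the shares were 20.4% and 11.6% for H3K4ox replicates 1 and 2, 6.63% for H2A.Z and 6.08% for RUVBL2.

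Peaks were unevenly spread inside the type II interior. The first 600 kb held 14 and 13 H3K4ox peaks of replicates 1 and 2, 1 H2A.Z peak and 1 RUVBL2 peak, whereas the last 130 kb next to KRT8 and KRT18 held 13 and 10, none and 5. In H3K4ox this was 22.5 ± 1.2 peaks per Mb in the first 600 kb and 88.5 ± 16.3 per Mb in the last 130 kb (SD, n = 2). The division at 53.16 Mb was chosen after the values were seen. Scores, the authors' own per-peak values in an unstated unit, were also low in the first 600 kb, where 2 of 14 and 2 of 13 H3K4ox peaks were in the upper 50% of their list by score. In the last 130 kb 10 of 13 and 6 of 10 were. Leaving out the last 130 kb, the denser part for H3K4ox and RUVBL2, had to lower the log2 ratio of interior to flanks. It was then -2.45 for H3K4ox and -4.29, from 1 interior peak, for RUVBL2. The longest stretch of the interior without a peak of any list ran over 116.5 kb, chr12:52730726-52847265, and 427 stretches of the genome, 0.124% of 344166, were at least as long. RUVBL2 had none over the first 338.0 kb of the cluster, and none for 367.8 kb when the adjoining flank is added. That length was reached by 213 of its 109583 stretches. H2A.Z had none for 421.7 kb that run into the KRT8-KRT18 end, a length reached by 2.73% of its stretches. In the type I interior the longest stretch without a peak of any list was 35.3 kb, a length reached by 3.10%. Each was picked as the longest of its region, so these shares do not measure rarity beyond the densities.

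The single H2A.Z peak of the interior, chr12:52895089-52895602, was weak, with a score of 55.37 that 22.5% of the list fell below, and met no other peak. Nearby lay the sole RUVBL2 peak of the first 600 kb, chr12:52897952-52898680 (score 59.97), over an H3K4ox peak of replicate 2 with a score of 52.02. The 3 best H3K4ox peaks of each library met a peak of the other library and lay 578.0 kb or more from the cluster start. In replicate 1 the best was chr12:53137560-53138540, with a score of 157.9, and it scored 158.4 in replicate 2. The site chr12:53236164-53237664 scored 156.4 and 200.5 in replicates 1 and 2, and chr12:53248019-53249932 scored 93.9 and 217.4. Both of these sites met RUVBL2, at best scores of 72.45 and 109.0. No site of the interior or of the KRT8-KRT18 end held peaks of the 4 lists together. Each of these regions has 1 H2A.Z peak, so at most 1 such site was possible in each. Such sites were also rare in the type II flanks, with 4 of 355.

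**Figure D2:**
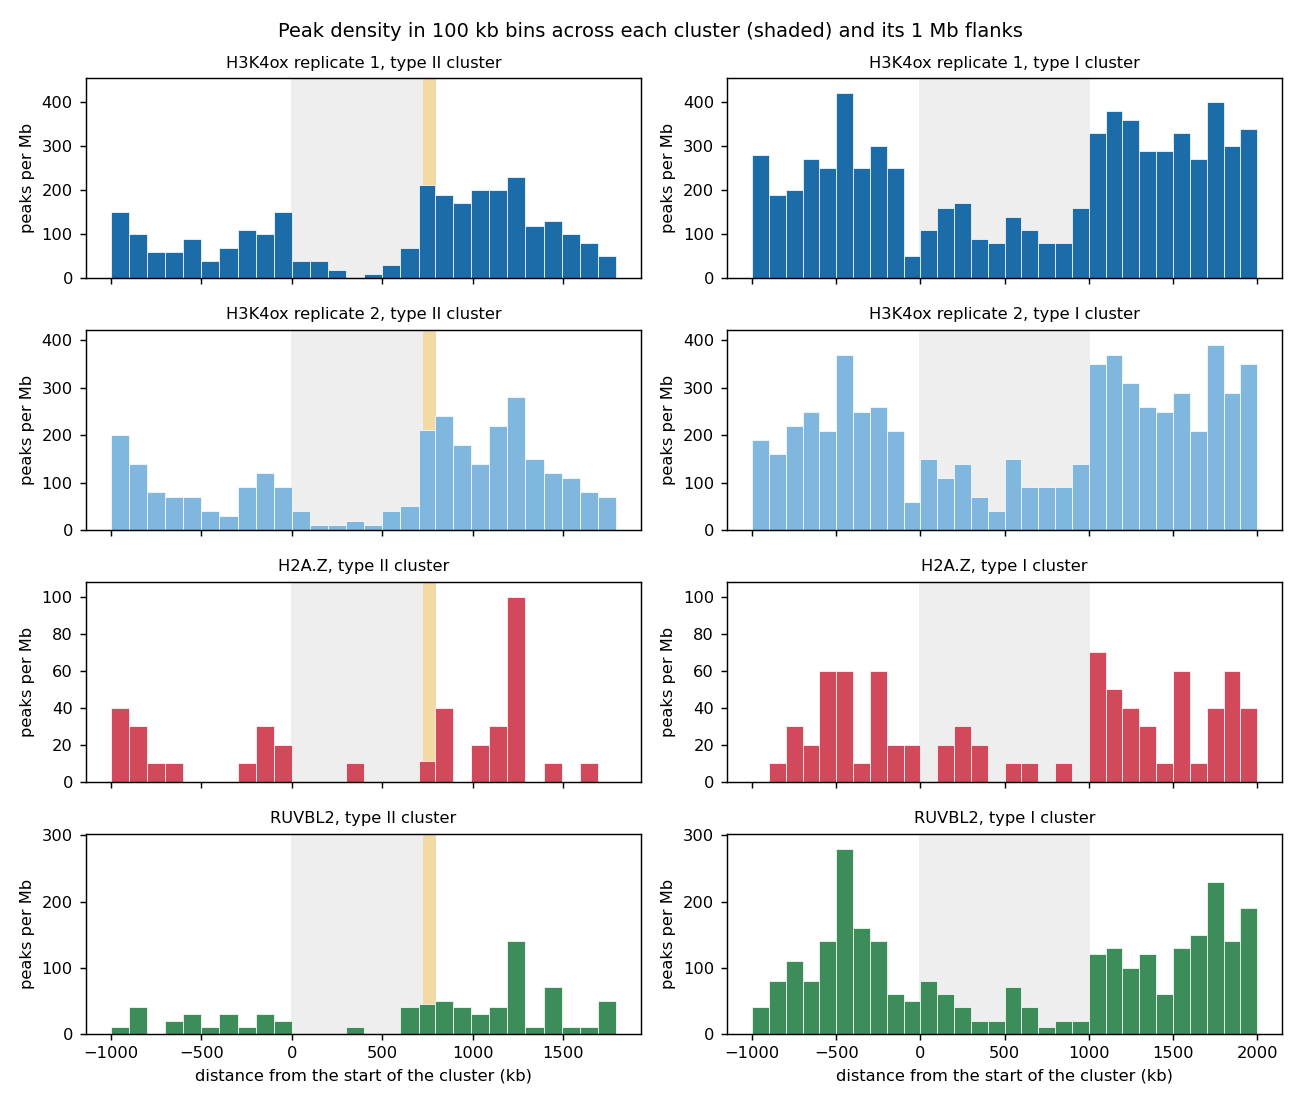
Peaks per Mb (y axis) in 100 kb bins against distance from the cluster start in kb, for the type II cluster (left) and the type I cluster (right), 1 row per list. Grey marks the cluster and ochre the KRT8-KRT18 end. Within the type II cluster H3K4ox lies at 0 to 7 peaks per bin until the last bin of 90 kb. That bin spans the end and the adjoining interior and holds 19 in each replicate.

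The KRT8-KRT18 end (53.29 to 53.35 Mb, 60 kb) was denser in H3K4ox than the type II interior taken as a whole. The rise began before the 53.29 Mb limit, since the last 130 kb of the interior held 88.5 ± 16.3 H3K4ox peaks per Mb (SD, n = 2). The end held 13 and 14 H3K4ox peaks of replicates 1 and 2, against 27 and 23 in an interior 730 kb long. The densities were 225.0 ± 11.8 peaks per Mb in the end and 34.2 ± 3.9 per Mb in the interior (SD, n = 2). The log2 ratio was 2.72 ± 0.24 (SD, n = 2), with intervals of 1.47 to 3.55 and 1.82 to 3.91 for replicates 1 and 2. Leaving out the 130 kb that adjoin the end, a dense stretch chosen after its values were seen, had to raise the ratio. It was then 3.32 for H3K4ox and 4.91, from 3 peaks against 1, for RUVBL2. H2A.Z had 1 peak in each (log2 ratio 3.60, interval -2.69 to 9.90) and RUVBL2 3 in the end and 6 in the interior (log2 ratio 2.60, interval -0.02 to 4.83), so for these antibodies a difference was not detectable by counting. Against the 1 Mb flanks of the cluster the end was higher in H3K4ox in both libraries, with a log2 ratio of 0.87 ± 0.03 (SD, n = 2), but each counting interval reached past 0 (-0.08 to 1.65 and -0.003 to 1.66). Against the distal flank alone, which it adjoins, the log2 ratio was 0.56 ± 0.004 (SD, n = 2), with intervals of -0.38 to 1.38 and -0.35 to 1.34. The first 100 kb of that flank held 190 and 240 H3K4ox peaks per Mb in replicates 1 and 2, next to 217 and 233 per Mb in the end. Among 46469 windows of 60 kb, 9.65% held at least 13 H3K4ox peaks of replicate 1 and 7.77% at least 14 of replicate 2. At least 3 RUVBL2 peaks were held by 34.2% and at least 1 H2A.Z peak by 43.2%. Within chromosome 12 these shares were 12.2% and 10.4% for H3K4ox replicates 1 and 2, 34.9% for RUVBL2 and 41.1% for H2A.Z. Peaks covered 26.1% ± 1.7 of the end and 2.99% ± 0.37 of the interior in H3K4ox (SD, n = 2).

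Within the end, overlapping peaks formed 16 sites, of which 9 (56.3%) held peaks of both H3K4ox libraries and 3 of these also RUVBL2. Sites with both H3K4ox libraries made up 35.9% of 39 in the type II interior and 44.5% of 155 in the type I interior. They made up 40.8% of 355 in the type II flanks and 64.9% of 626 in the type I flanks. The share over the whole series was not computed. In the type II flanks, 27 sites held both and RUVBL2 without H2A.Z, and 4 held the 4 lists. The main site was chr12:53326591-53331919, 5329 bp in width. It held the best H3K4ox peak of the end in replicate 1, 4109 bp wide with a score of 457.3, an H3K4ox peak of replicate 2 with a score of 248.5, and the best RUVBL2 peak, with a score of 224.1. Of their lists, 96.8%, 90.2% and 91.6% had lower scores. Next came chr12:53310740-53312360, with H3K4ox scores of 206.0 and 261.8 in replicates 1 and 2, and chr12:53333835-53335419, with 191.8 and 159.7, both without H2A.Z or RUVBL2. The other sites with RUVBL2, chr12:53307647-53308519 and chr12:53308732-53309647, were weak, with RUVBL2 scores of 60.61 and 50.59. H3K4ox replicates 1 and 2 scored 60.92 and 58.67 at the first of them and 51.12 and 84.98 at the second. The single H2A.Z peak, chr12:53317305-53318481 (score 114.8, above 84.3% of its list), met an H3K4ox peak of replicate 2 with a score of 76.11 and none of replicate 1. The remaining sites were of H3K4ox alone: 4 in both libraries, with scores between 56.76 and 124.7, and 6 in 1 library, between 55.44 and 100.8.

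**Figure D3:**
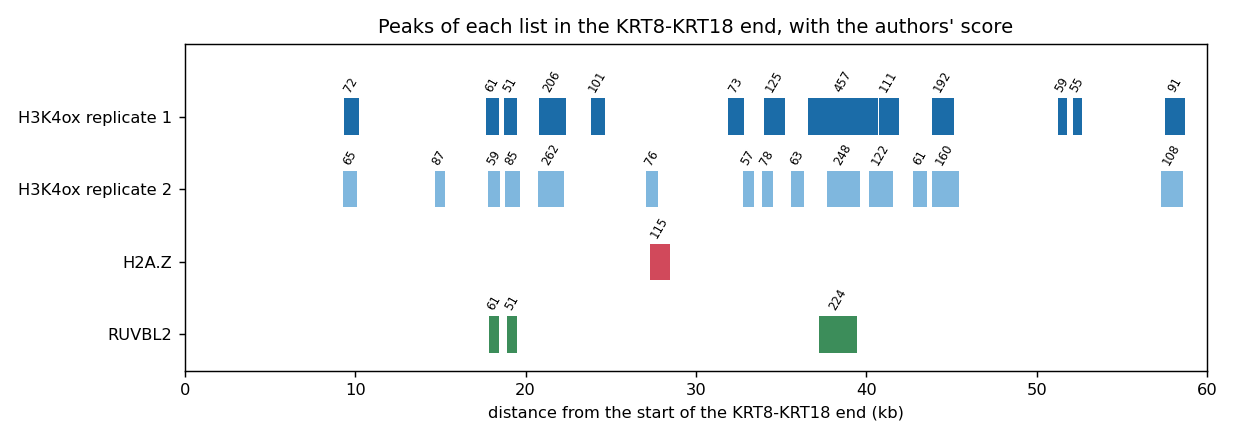
Peaks of each list (rows) in the KRT8-KRT18 end, against distance from its start in kb, drawn to scale with the authors' score above each. RUVBL2 meets H3K4ox at 3 peaks, the widest at the main site where H3K4ox scores 457.3 and 248.5, and the H2A.Z peak lies apart from RUVBL2.

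The type I cluster (38.8 to 39.8 Mb of chromosome 17) was also sparser than its flanks in the 4 lists, though it was not sparse for the genome. H3K4ox had 118 and 107 peaks in the cluster in replicates 1 and 2, against 575 and 525 in the flanks, or 112.5 ± 7.8 and 275.0 ± 17.7 peaks per Mb (SD, n = 2). The log2 ratio was -1.29 ± 0.01 (SD, n = 2), with intervals of -1.58 to -0.997 and -1.61 to -0.99. H2A.Z had 10 peaks in the cluster and 70 in the flanks (log2 ratio -1.81, interval -2.93 to -0.84), and RUVBL2 had 38 and 251 (log2 ratio -1.72, interval -2.26 to -1.23). Each list had fewer peaks in the cluster than in either flank alone, with every interval below 0. Per 100 kb the cluster held 8 to 17 H3K4ox peaks of replicate 1 (median 11), 4 to 15 of replicate 2 (median 10), 0 to 3 of H2A.Z (median 1) and 1 to 8 of RUVBL2 (median 3). The medians of the flanks were 29, 25.5, 3.5 and 12.5, so no 100 kb of the cluster reached the median of its flanks in any list.

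Chromosome 17 is dense in peaks, and the picture depended on what the cluster was set against. Of 2917 windows of 1000 kb over the genome, 77.3% and 74.5% held no more H3K4ox peaks than the cluster in replicates 1 and 2, 53.3% no more H2A.Z peaks and 67.1% no more RUVBL2 peaks. Of the 80 windows of chromosome 17 itself, 18.8% held as few H3K4ox peaks in each replicate, 25% as few H2A.Z peaks and 28.8% as few RUVBL2 peaks. The type I interior was denser than the type II interior, with 112.5 ± 7.8 against 34.2 ± 3.9 H3K4ox peaks per Mb (SD, n = 2, log2 ratio 1.72 ± 0.06). The flanks of type I were denser than those of type II as well (log2 ratio 1.16 ± 0.14, SD, n = 2). Whether the clusters differ once their surroundings are allowed for was not tested.

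H3K4ox scores were lower inside the type I cluster than around it. Of the H3K4ox peaks of replicates 1 and 2, 40.7% and 37.4% were in the upper 50% of their list by score in the cluster, against 63.7% and 64.2% in the flanks and 50% of a whole list. Median scores were 72.6 ± 0.7 in the cluster and 102.7 ± 0.6 in the flanks (SD, n = 2). For H2A.Z the shares were 50% of 10 peaks in the cluster and 67.1% of 70 in the flanks, and for RUVBL2 50% of 38 and 46.2% of 251. The type II interior had 44.4% and 34.8% of its H3K4ox peaks in the upper 50%, and its flanks 44.2% and 44.05%, so both were below 50% there.

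A few strong sites stood within the type I cluster. The best H3K4ox peak of the cluster was the same site in both libraries, chr17:39788659-39790268 in replicate 1 (score 1325) and chr17:39788477-39790460 in replicate 2 (score 997.5), above 99.9% and 99.8% of the lists. It met neither H2A.Z nor RUVBL2. A site at chr17:39754148-39756048, as replicate 2 gives it, scored 798.6 and 498.8 in replicates 1 and 2 and was again without the other antibodies. Both lay in the last 50 kb of the cluster.

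Other strong sites gathered in 70 kb, from 39.35 to 39.42 Mb, a stretch picked out after its values were seen. It held 13 and 17 H3K4ox peaks of replicates 1 and 2, which covered 33.3% and 30.7% of it, and 8 RUVBL2 peaks, which covered 19.9%. Over the other 930 kb of the cluster H3K4ox covered 9.24% and 7.51% and RUVBL2 2.53%. Every one of the 8 RUVBL2 peaks met H3K4ox of both replicates, as did 10 of 30 in the rest of the cluster. Over the type I interior as a whole, 63.2% of RUVBL2 peaks met replicate 1 and 65.8% replicate 2. The shares were 89.6% and 83.3% in its flanks and 73.2% and 71.8% over the whole list. The share that met both was not computed for the flanks or the list, so 8 of 8 and 10 of 30 have no direct background. The stretch was picked for its strong sites, and the part of its high H3K4ox coverage in the 8 of 8 was not tested. The 3 best RUVBL2 peaks of the cluster were among the 8. The strongest was chr17:39356942-39362214, with best scores of 848.1 and 331.7 for H3K4ox replicates 1 and 2, 574.8 for RUVBL2 and 50.05 for H2A.Z, which is almost the lowest score the H2A.Z list contains. The site chr17:39397237-39402106 followed with 812.2, 416.1 and 242.05 for H3K4ox replicates 1 and 2 and RUVBL2, and chr17:39374761-39379176 with 412.9, 310.6 and 208.7, both without H2A.Z. Without the stretch, RUVBL2 in the cluster had a log2 ratio to the flanks of -1.96, and H3K4ox -1.39. Leaving out so dense a stretch had to lower both ratios.

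**Figure D4:**
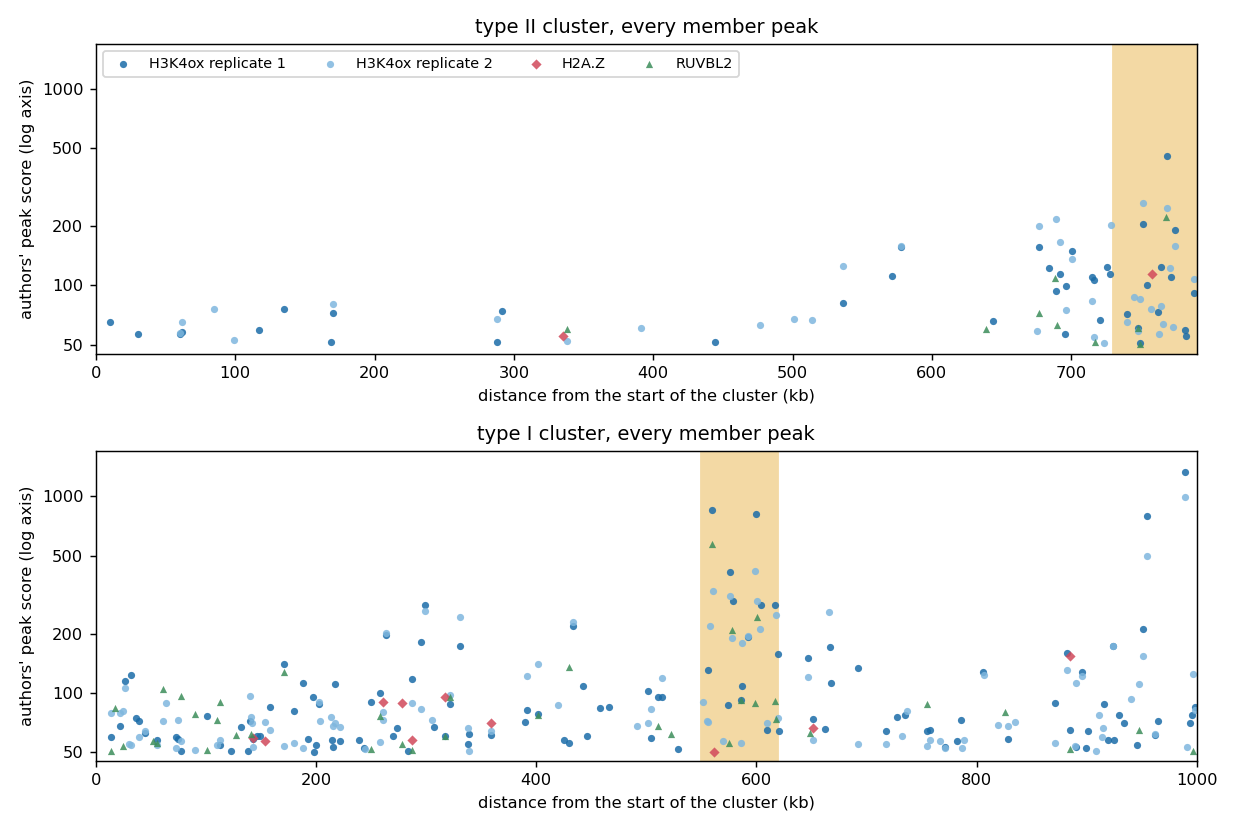
The authors' score of every member peak (y axis, log scale) against distance from the cluster start in kb, for the type II cluster (top) and the type I cluster (bottom). Ochre marks the KRT8-KRT18 end and the 70 kb stretch of type I; scores in the first 600 kb of type II stay at or below 158.4, while type I reaches 1325.

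H2A.Z had the fewest peaks of the 4 lists in the type I cluster. Its 10 peaks had scores from 50.05 to 154.1, and 3 of them lay between 200 and 300 kb from the cluster start. The best was chr17:39684683-39686006 (score 154.1, above 91.3% of its list), which met weak peaks of H3K4ox replicate 1 (64.87) and RUVBL2 (51.47). The only other site of the 4 lists together, beside that of the 70 kb stretch, was chr17:39086583-39087868. Its scores were 117.2, 89.04, 57.71 and 50.79 for H3K4ox replicates 1 and 2, H2A.Z and RUVBL2. Such sites were thus 2 of 155 in the cluster, against 35 of 626 in its flanks. The 10 H2A.Z peaks of the cluster limit how many were possible. The next best H2A.Z peaks, chr17:39116683-39117651 (score 94.9) and chr17:39059947-39060845 (score 89.81), met H3K4ox of 1 replicate each, replicate 1 and replicate 2 in that order. Per 100 H3K4ox peaks, averaged over the replicates, H2A.Z had 8.89 peaks in the type I interior and 4 in the type II interior, against 12.7 and 14.6 in their flanks and 15.5 in the whole series. RUVBL2 had 33.8 and 24 in the interiors, against 45.6 and 26.4 in the flanks and 43.9 in the whole series. The type II value for H2A.Z rests on 1 peak.

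The last comparison asked whether interior peaks, taken over both clusters, met peaks of the other lists as often as peaks elsewhere did. Pooled over the clusters, a smaller share of H3K4ox peaks met the other replicate in the interiors than in the flanks. In replicate 1, 85 of 145 interior peaks (58.6%, 95% exact interval 50.2 to 66.7) met replicate 2, against 73.6% of 815 in the flanks (70.5 to 76.6) and 67.8% over the whole list. In replicate 2, 88 of 130 (67.7%, 58.9 to 75.6) met replicate 1, against 76.4% of 777 in the flanks (73.3 to 79.4) and 70.2% over the list. The mean was 63.2% ± 6.4 in the interiors and 75.03% ± 2.0 in the flanks (SD, n = 2). The intervals were apart in replicate 1 and overlapped in replicate 2, where the share was also close to that of the list. In type I the shares were 60.2% and 69.2% in the interior, against 77.9% and 84.4% in the flanks. In type II they were 51.9% and 60.9% in the interior, against 63.3% and 59.9% in the flanks, so replicate 2 did not share the direction there.

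Pooled in the same way, RUVBL2 was met by a smaller share of H3K4ox peaks in the interiors, most of which lie in type I. It was met by 17.2% of H3K4ox peaks of replicate 1 (11.5 to 24.4) and 21.5% of replicate 2 (14.8 to 29.6) in the interiors, against 32.5% and 32.6% in the flanks and 30.7% and 31.3% over the lists. The interval of the flanks lay above that of the interiors in replicate 1 (29.3 to 35.9) and touched it in replicate 2 (29.3 to 36.0). In type I the shares were 19.5% and 23.4% in the interior, against 38.8% and 40.4% in the flanks. In type II they were 2 of 27 (7.41%) and 3 of 23 (13.0%) in the interior, against 17.5% and 16.3% in the flanks, with intervals of 0.91 to 24.3 and 2.78 to 33.6 in the interior that hold the flank values. The other way round, 35 of 44 interior RUVBL2 peaks (79.5%, 64.7 to 90.2) met H3K4ox of either replicate, against 91.8% of 316 in the flanks (88.2 to 94.6) and 81.9% over the list. With replicate 1 or 2 alone the interior shares were 61.4% and 65.9%, against 73.2% and 71.8% over the list. For H2A.Z, 9 of 11 interior peaks (81.8%, 48.2 to 97.7) met H3K4ox of either replicate, against 81.1% of 106 in the flanks and 64.9% over the list. With 200 bp intervals at the peak centres in place of whole peaks, 5 of the 11 (45.5%) did. With either replicate alone it was 7 of 11 (63.6%), against 55.2% and 53.6% over the list for replicates 1 and 2. RUVBL2 was met by 5 of the 11 (45.5%, 16.7 to 76.6), against 38.7% in the flanks and 33.4% over the list. Of the 11 peaks 10 lay in type I, where 5 (50%) met RUVBL2 and 9 (90%) met H3K4ox of either replicate. In the type I flanks 50% and 88.6% of 70 did, so within type I the shares were alike. The 1 peak in type II met neither, against 16.7% and 66.7% of 36 in its flanks. The H2A.Z list was met by 4.83% of interior H3K4ox peaks of replicate 1 and 6.15% of replicate 2. The shares were 9.94% and 9.40% in the flanks and 8.47% and 8.46% over the lists. The interior shares rest on 7 and 8 peaks, all in type I. Their intervals (1.96 to 9.69 and 2.69 to 11.8) hold the list values and overlap those of the flanks (7.97 to 12.2 and 7.44 to 11.7). Peak density differed between these regions as given above, and its part in these shares was not tested.

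**Figure D5:**
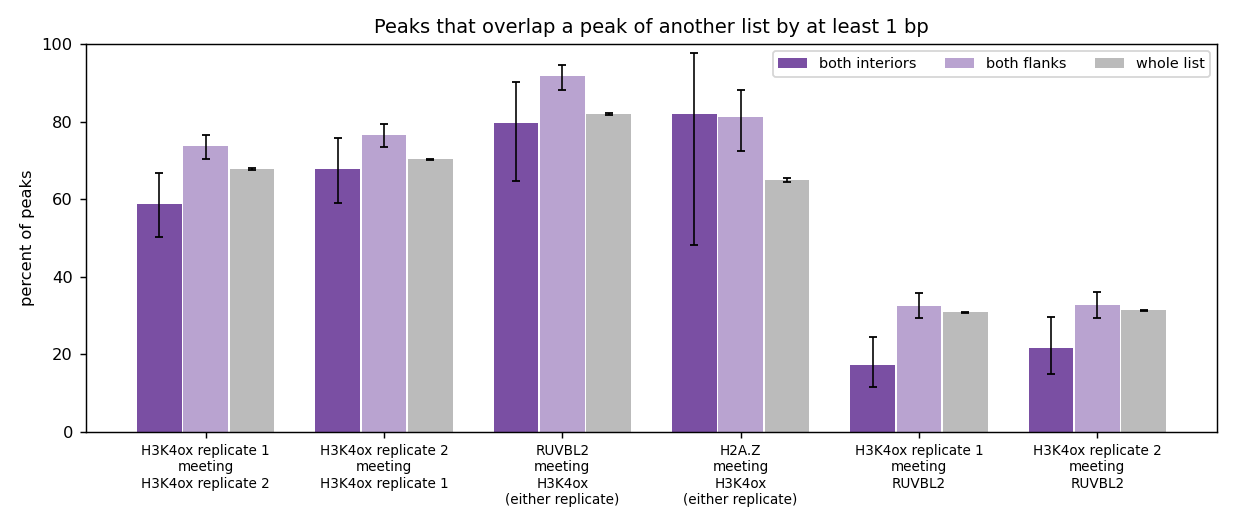
Percent of peaks (y axis) that overlap a peak of another list by at least 1 bp, for both cluster interiors, both pairs of flanks and the whole list, with exact 95% binomial intervals. H3K4ox peaks of the interiors meet RUVBL2 in 17.2% and 21.5% of cases in replicates 1 and 2, against 32.5% and 32.6% in the flanks.

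At the limits of the regions, the nearest H3K4ox peaks of replicate 1 had scores of 64.8 inside and 65.57 outside the proximal limit of type II, and 91.48 inside and 199.2 outside the distal limit. At type I they had 59.74 inside and 56.21 outside the proximal limit, and 84.89 inside and 111.2 outside the distal limit. In replicate 2 the scores were 57.07 inside and 81.82 outside the proximal limit of type II, 107.5 and 145.6 at its distal limit, 79.08 and 75.22 at the proximal limit of type I and 81.86 and 74.13 at its distal limit. In both libraries the nearest outer peak scored above the nearest inner peak at the limits of type II, by little at the proximal limit in replicate 1. The inner peaks at the proximal limit were not close to it, at 10.4 and 60.1 kb in replicates 1 and 2. At the distal limit the centre of the outer peak lay 0.116 kb from the limit in replicate 1 and 0.0795 kb in replicate 2. With any overlap counted, the end held 14 and 15 H3K4ox peaks in place of 13 and 14, so those outer peaks reach into the end.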

How the data were processed

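Sonicated MDA-MB-231 chromatin gave 4 ChIP-seq libraries, grouped by title (H3K4ox in 2, the others in 1 each). Each library has a list whose peak names contain MACS; neither the version nor the settings of that caller are given in the sources used here. The deposited score of a peak is the authors' value in an unstated unit, with a lowest value of 50. Headers of the H3K4ox lists mention an input, those of H2A.Z and RUVBL2 mention none, and all 4 hold the word multilocus without explanation. The submitters' processing notes list hg19, Bowtie and TopHat, with no roles.

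Peaks were placed by their centre, and positions count from 1. An overlap is at least 1 bp. Windows ran from each chromosome's start and were kept where any list had a peak. Intervals (Clopper-Pearson or Poisson, exact, 95%) cover counting error. Read depth is unknown, so precision rests on peak numbers. No source says whether the H3K4ox libraries were separate cultures, and their SD may be technical. Calculations used numpy 2.4.6, pandas 2.3.3, scipy 1.17.1 and matplotlib 3.10.9 under Python 3.11.15, and were tested on simulated data. Clusters, regions and comparisons were chosen with earlier results of these data known. Sites were named by rule: the peaks of the KRT8-KRT18 end, the 3 best of each list per interior, H2A.Z peaks, sites of the 4 lists, the longest peak-free stretches, and the densest and sparsest 100 kb, of which the text gives part.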

Additional observations from a re-analysis of the deposited data

How the results depend on the processing

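In each of the 9 density comparisons the direction was kept under the alternatives that gave a value. H3K4ox in the type II interior over its flanks (log2 -1.85) gave -2.08 with flanks of 500 kb and -2.45 without the 130 kb next to the KRT8-KRT18 end, where RUVBL2 gave -4.29 from 1 peak against -1.98. In the type I interior (H3K4ox log2 -1.29) it gave -2.00 in the upper 50% by score, -1.32 with flanks of 500 kb, -1.60 by covered bases and -1.39 without the 70 kb stretch. The KRT8-KRT18 end over the interior (H3K4ox 2.72) gave 3.12 in the upper 50%, 3.13 by covered bases and 3.32 without the 130 kb, where RUVBL2 gave 4.91 from 3 peaks and 1. Leaving out each H3K4ox replicate gave -2.00 to -1.70, -1.29 to -1.28 and 2.55 to 2.89. The share of interior H3K4ox peaks found in the other replicate (63.2%) was 55.4% with 200 bp intervals at the centres. That of RUVBL2 meeting H3K4ox (79.5%) was 59.1% with 200 bp intervals, 60% with the RUVBL2 and H3K4ox lists all cut to their upper 50% (90% with RUVBL2 alone cut) and 61.4% to 65.9% without each H3K4ox replicate, and that of H2A.Z (81.8%) was 45.5% with 200 bp intervals, 0 of 5 peaks (0%) with the H2A.Z and H3K4ox lists all cut to their upper 50% (4 of 5 with H2A.Z alone cut) and 63.6% without each replicate. In all, 44 of 61 alternatives stayed within the replicate SD or the counting interval. This tally does not measure robustness. An H3K4ox density with 1 replicate left out stays within the SD by arithmetic, since that SD comes from the same 2 libraries. H2A.Z in the type II interior had no peak in the upper 50% and so no value there for 2 comparisons. The causes were not tested. Alternatives without the 130 kb or 70 kb stretches, or with 1 list cut, were chosen after seeing the data. No paired analysis was possible because no result comes from a test between groups of samples; interior and flanks were compared within each library, and 2 libraries allow no paired p under 0.5. Peak numbers limit what can be seen, above all for H2A.Z.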
